A study of Mus musculus with 21 samples.

Results

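The 10 genes described here are *Tnf*, its receptors *Tnfrsf1a* and *Tnfrsf1b*, the feedback inhibitor *Tnfaip3*, the NF-kappaB subunit genes *Nfkb1*, *Nfkb2*, *Rela* and *Relb*, and the inhibitor genes *Nfkbia* and *Nfkbie*. They were taken by name from a table of 27179 genes, by their Entrez Gene numbers. Reads per gene had been counted in podocyte fractions of 21 male, wildtype C57BL/6J mice. The fractions came from digested kidney cortex, from which cells that bound antibodies to nephrin, a protein of the podocyte surface, were drawn out with magnetic beads. Young, untreated mice (4 months, n = 6) were compared with middle-aged mice (19.5 months) that had been injected for 6 weeks with saline (n = 7) or with 10 mg/kg MCC950 in saline (n = 8), a small molecule inhibitor of the inflammasome sensor NLRP3. The young mice were untreated, so age and injection cannot be told apart in comparisons with them.

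TNF is a cytokine released mainly by macrophages and other immune cells. When it binds its receptors, a complex of adaptors and ubiquitin ligases forms on them and activates the IKK kinases, which mark IkappaB proteins for destruction. The NF-kappaB dimers that IkappaB held in the cytoplasm then enter the nucleus and drive inflammatory genes, among them several of their own inhibitors. In a second, noncanonical route the p100 product of *Nfkb2* is cut to p52, which pairs with RelB. In the glomerulus, TNF and its receptors have been studied mainly in inflammation and in podocyte injury.

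The libraries of the young mice held between 27375870 and 36827823 counts and those of the saline mice between 45772937 and 84876399, so depth and age went together. The MCC950 libraries held between 35440472 and 58247271 counts. Mitochondrial genes took 51.5% to 80.4% of the counts of a young library (median 71.1%) and 63.0% to 79.2% of a saline library (median 68.6%). In MCC950 libraries they took 49.9% to 63.7% (median 57.5%), so this share differed between the groups. All 15 podocyte markers looked at were counted in every library, with a summed level of 928 to 1977 CPM (counts as a share of the library's adjusted total) in young, 367 to 669 in saline and 525.7 to 813 in MCC950 fractions. Markers of proximal tubule, endothelium and macrophages were counted in every library as well, so the fractions were not of podocytes alone. In young, saline and MCC950 fractions the median sums were 3429, 3187 and 5451 CPM for 12 proximal tubule markers. They were 3234, 3812 and 3189 for 7 markers of the loop of Henle and distal tubule. For 12 macrophage and myeloid markers they were 1552, 2776 and 2145, and for 9 endothelial markers 730, 327 and 256. Sums over different genes do not give shares of cells. In such bulk samples, fewer cells of a type and less RNA per cell cannot be told apart.

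Because NF-kappaB drives some of its own inhibitors, the promoters of the 10 genes were searched for the kappaB consensus, a motif of 10 bases at which NF-kappaB dimers bind, on both strands of windows from 250 bases before to 50 bases after the RefSeq start sites (GRCm38.p6). Windows were found for 8 of the 10 genes, all but *Nfkb1* and *Relb*. At least 1 match was present for 4 genes, *Tnfaip3*, *Nfkb2*, *Nfkbia* and *Nfkbie*. Of all 27025 genes with a window, 9.55% held a match. The 4 genes are shown, 5′ to 3′ on the strand of the gene, with the matches in capitals; for *Tnfaip3* and *Nfkb2*, which have several start sites, the window with the most matches is given.

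*Tnfaip3* (chr10:19015361-19015660, minus strand): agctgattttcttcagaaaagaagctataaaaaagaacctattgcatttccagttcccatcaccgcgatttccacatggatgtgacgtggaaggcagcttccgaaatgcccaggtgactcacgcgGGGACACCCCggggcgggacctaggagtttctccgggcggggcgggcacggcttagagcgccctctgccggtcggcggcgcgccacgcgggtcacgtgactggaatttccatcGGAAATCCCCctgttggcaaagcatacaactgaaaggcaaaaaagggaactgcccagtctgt

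*Nfkb2* (chr19:46304487-46304786, plus strand): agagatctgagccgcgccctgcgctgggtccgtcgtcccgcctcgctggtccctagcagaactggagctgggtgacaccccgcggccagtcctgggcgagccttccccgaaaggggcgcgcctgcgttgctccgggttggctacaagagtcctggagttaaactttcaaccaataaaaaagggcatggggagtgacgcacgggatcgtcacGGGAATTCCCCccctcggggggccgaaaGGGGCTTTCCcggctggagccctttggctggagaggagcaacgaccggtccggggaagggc

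*Nfkbia* (chr12:55492598-55492897, minus strand): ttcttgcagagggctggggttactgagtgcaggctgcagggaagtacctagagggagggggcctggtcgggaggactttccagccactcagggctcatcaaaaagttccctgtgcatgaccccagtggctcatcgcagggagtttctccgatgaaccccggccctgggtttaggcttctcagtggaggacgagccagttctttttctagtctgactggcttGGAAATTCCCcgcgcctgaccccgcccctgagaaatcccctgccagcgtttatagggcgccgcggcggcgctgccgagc

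*Nfkbie* (chr17:45555450-45555749, plus strand): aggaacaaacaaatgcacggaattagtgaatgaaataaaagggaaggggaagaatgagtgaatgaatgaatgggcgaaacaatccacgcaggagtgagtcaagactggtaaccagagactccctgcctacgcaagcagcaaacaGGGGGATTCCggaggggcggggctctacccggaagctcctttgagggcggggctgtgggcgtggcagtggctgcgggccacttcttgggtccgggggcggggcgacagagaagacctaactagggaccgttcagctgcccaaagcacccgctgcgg

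The matches began 125 and 12 bases before the start site in *Tnfaip3* and 29 bases before it in *Nfkbia*, and the single match in *Nfkbie* lay farther from the start site than the match in *Nfkbia*. In *Nfkb2* they began 39, 38 and 11 bases before it, and those at 39 and 38 overlap. A match describes the letters of the window, and binding was not measured.

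The first comparison asked how the genes differed between young and middle-aged, saline-treated mice. All 10 genes had a positive log2 fold change, with a median of 0.56 against 0.02 over all 16377 genes tested, of which 52.7% were above 0. An adjusted p under 0.05 (edgeR's quasi-likelihood test, Benjamini-Hochberg over all genes tested) was reached by 5 of the 10, *Tnfrsf1b*, *Relb*, *Nfkbie*, *Nfkb2* and *Rela*, all of them higher in middle-aged mice. Over all genes 24.6% were called, 12.2% higher and 12.4% lower. All 10 had an unadjusted p under 0.05, against 36.9% of all genes, and none also passed a 2-fold change, as 6.96% of all genes did. The 10 genes vary together between libraries, and their shares are descriptions.

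**Figure D1:**
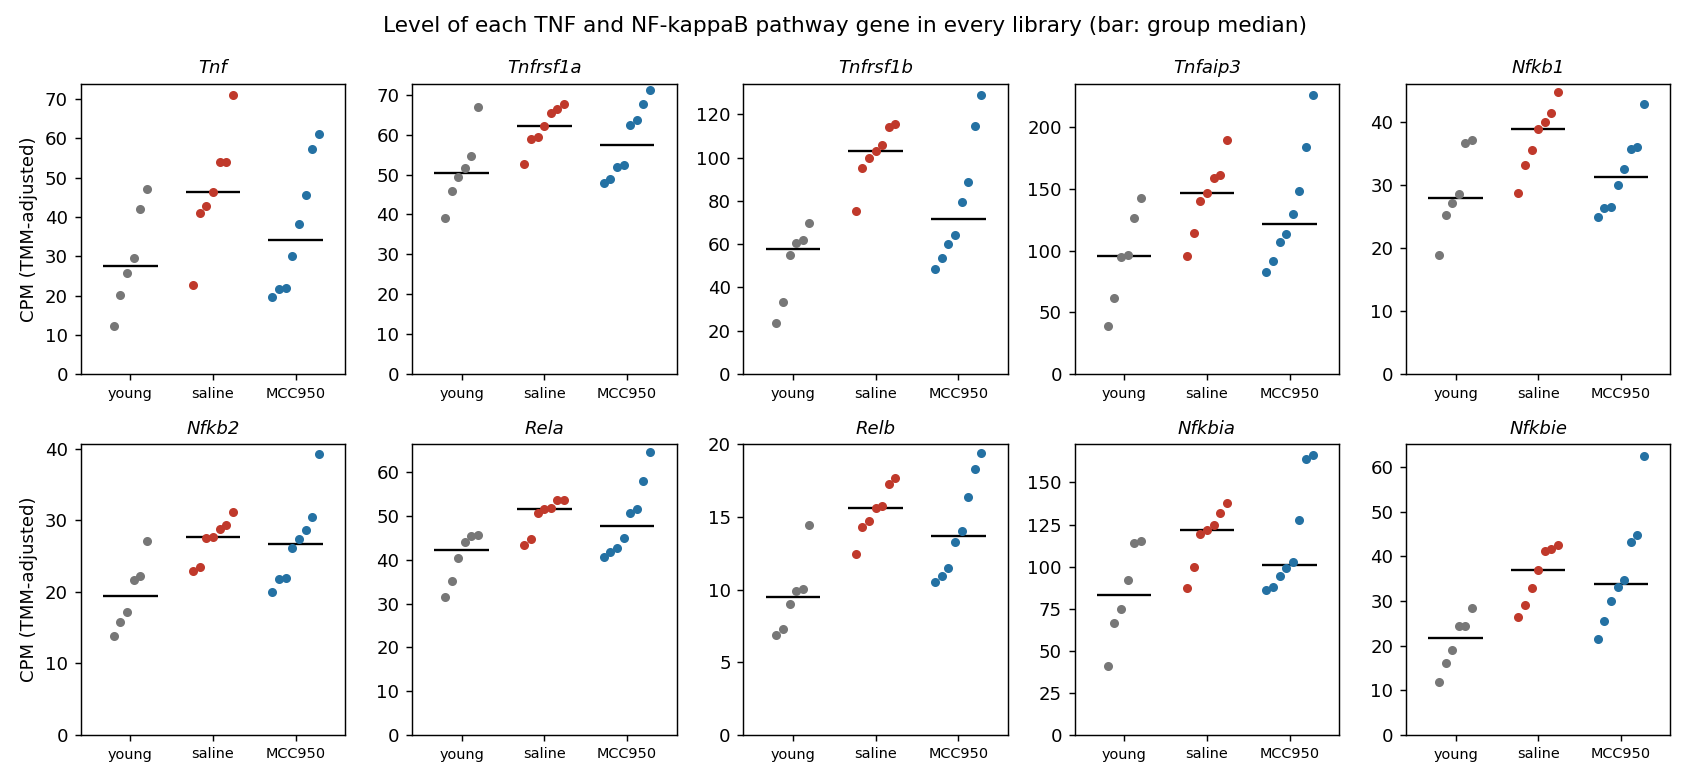
Level of each of the 10 genes in CPM (y axis, from 0) in every library of the young (n = 6), saline (n = 7) and MCC950 (n = 8) groups (x axis). Points are libraries and the bars are group medians. *Tnfrsf1b* is the gene whose saline libraries (75.2 to 115.3 CPM) all lie above the young ones (23.4 to 70.0 CPM).

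Among the ligand and its receptors, the level of *Tnf*, the cytokine itself, ran from 12.3 to 47.2 CPM in young mice (median 27.6) and from 22.8 to 71.0 in saline mice (median 46.4). The groups overlapped, with 3 of the 7 saline libraries above every young library and saline replicate 5 below the young median. The difference (1.61-fold, log2 fold change 0.69 ± 0.32, SE) did not pass the test over all genes (edgeR adjusted p = 0.119).

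*Tnfrsf1a* encodes TNFR1, the receptor found on most cell types, which carries a death domain. It ran from 39.2 to 66.9 CPM in young mice (median 50.5) and from 52.8 to 67.7 in saline mice (median 62.3). Only saline replicate 7 was above the highest young library, replicate 4. The log2 fold change was 0.27 ± 0.11 (edgeR adjusted p = 0.0862).

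*Tnfrsf1b* encodes TNFR2, the receptor without a death domain that is found mostly on immune and endothelial cells. Its level ran from 23.4 to 70.0 CPM in young mice (median 57.9) and from 75.2 to 115.3 CPM in saline mice (median 103). No library of one group reached into the range of the other, which held for 4.51% of all genes in this direction. *Tnfrsf1b* rose 2.00-fold (log2 fold change 1.00 ± 0.24, edgeR adjusted p = 0.00506), the largest of the 10 differences, and its adjusted p stayed between 0.00323 and 0.0195 when each of the 21 libraries was left out in turn.

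*Tnfaip3* encodes A20, a ubiquitin-editing enzyme that shuts off signalling from the TNF receptor and is itself induced by NF-kappaB. It ran from 38.9 to 143 CPM in young mice (median 95.8) and from 96.1 to 190 in saline mice (median 147). Young replicate 4 was the highest young library and 4 of the 7 saline libraries were above it. The log2 fold change of 0.62 ± 0.26 did not pass (edgeR adjusted p = 0.0883).

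Of the NF-kappaB subunits, *Relb*, the partner of p52 in the noncanonical route, had the lowest counts, 177 at least. It ran from 6.88 to 14.5 CPM in young mice (median 9.47) and from 12.4 to 17.7 in saline mice (median 15.6). The overlap came from young replicate 6, since the other young libraries were at 10.0 CPM or lower. *Relb* rose 1.61-fold (log2 fold change 0.69 ± 0.17, edgeR adjusted p = 0.00488), and its adjusted p was at most 0.0226 with any 1 library left out.

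*Nfkb2*, the gene of p100 and p52, ran from 13.8 to 27.1 CPM in young mice (median 19.4) and from 22.9 to 31.2 in saline mice (median 27.7). Here too, young replicate 6 was the only young library inside the saline range. *Nfkb2* rose 1.39-fold (log2 fold change 0.47 ± 0.16, edgeR adjusted p = 0.0295). Its adjusted p was over 0.05, up to 0.0926, when young replicate 1, 3 or 5 or saline replicate 2, 3, 4, 6 or 7 was left out.

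*Rela*, the gene of p65, the main activating subunit of the canonical route, ran from 31.5 to 45.6 CPM in young mice (median 42.3) and from 43.4 to 53.6 in saline mice (median 51.5). The difference was small, and 5 of the 7 saline libraries were above every young library. *Rela* rose 1.24-fold (log2 fold change 0.31 ± 0.11, edgeR adjusted p = 0.0466). This call lay near the threshold, since the adjusted p was over 0.05, up to 0.142, when any of the 6 young libraries, saline replicate 1, 2, 3, 4, 6 or 7, or MCC950 replicate 3 or 8 was left out. It was 0.0609 with DESeq2, and over the 13 alternative settings it ran from 0.00225 to 0.445.

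*Nfkb1*, the gene of p105 and p50, the usual partner of p65, ran from 18.9 to 37.1 CPM in young mice (median 27.9) and from 28.7 to 44.8 in saline mice (median 38.8). Young replicates 4 and 6 lay within the saline range. The log2 fold change was 0.37 ± 0.15 (edgeR adjusted p = 0.0732).

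The inhibitors hold NF-kappaB dimers in the cytoplasm. *Nfkbia*, the gene of IkappaB-alpha, the inhibitor that is resynthesised fastest after NF-kappaB activation, ran from 40.7 to 115.05 CPM in young mice (median 83.4) and from 87.0 to 138 in saline mice (median 122). The saline libraries above every young library numbered 5, and the log2 fold change of 0.49 ± 0.21 did not pass (edgeR adjusted p = 0.0941). *Nfkbie*, the gene of IkappaB-epsilon, ran from 11.8 to 28.5 CPM in young mice (median 21.7) and from 26.3 to 42.5 in saline mice (median 37.0). Again 6 of the 7 saline libraries were above every young library. *Nfkbie* rose 1.73-fold (log2 fold change 0.79 ± 0.22, edgeR adjusted p = 0.0128), with an adjusted p of at most 0.0441 with any 1 library left out.

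The young libraries that were low were largely the same ones. Young replicate 1 was the lowest young library for 9 of the 10 genes, and for *Relb* it was replicate 3. The highest young library was replicate 6 for 6 genes and replicate 4 for the other 4. In the saline group, replicates 1 and 5 were lowest for 5 genes each, and replicates 2, 7 and 3 were highest for 5, 4 and 1. Without young replicate 4, *Tnfrsf1a*, *Tnfaip3* and *Nfkb1* also passed the test, and *Nfkb1* did so without young replicate 6, with edgeR adjusted p between 0.0379 and 0.0496. In all, 3 to 7 of the 10 genes were called with any 1 library left out, against 18.1% to 28.3% of all genes.

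Markers of macrophages and myeloid cells moved in the same direction as the 10 genes. Of 12 such markers 5 rose and all 12 had a positive log2 fold change, with a summed level of 469.9 to 2315 CPM in young and 1720 to 4145 CPM in saline libraries. Young replicate 1, the lowest library for 9 of the 10 genes, had the lowest of these sums, and saline replicate 5 the lowest of its group. Saline replicate 5 and young replicate 4, the library with the highest sum of the young group (2315 CPM), had 103 and 61.8 CPM of *Tnfrsf1b* but 22.8 and 42.1 CPM of *Tnf*. With the mean level of the macrophage and myeloid markers as a covariate, *Tnfrsf1b* was the only 1 of the 10 genes called in this comparison, where 20.2% of all genes (3315) were called, and the log2 fold change of *Tnf* was -0.12.

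**Figure D2:**
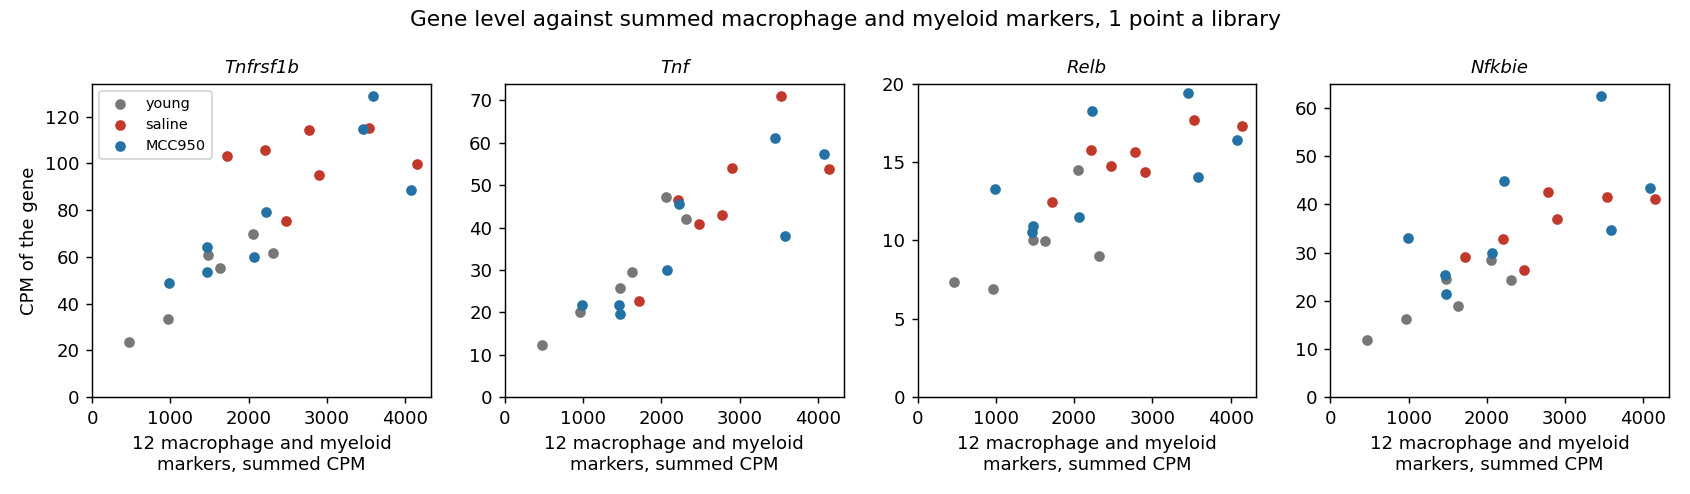
Level of *Tnfrsf1b*, *Tnf*, *Relb* and *Nfkbie* (y axes, CPM) against the summed CPM of 12 macrophage and myeloid markers (x axis), with 1 point for each of the 21 libraries. Young replicate 1, with the lowest sum (469.9 CPM), is the lowest of all libraries for *Tnfrsf1b*, *Tnf* and *Nfkbie*, while for *Tnfrsf1b* the saline library with the lowest sum (1720 CPM) lies above all young libraries.

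Markers of other cell types moved as well. Of the 15 podocyte markers 14 fell, 8 of 9 endothelial markers fell, and 3 of 8 T cell and 3 of 7 B and plasma cell markers rose. With the podocyte markers as a covariate none of the 10 genes was called, and over all genes 6 were called instead of 4034. The podocyte marker sums of young and saline libraries do not overlap, so this covariate and age cannot be told apart. With the proximal tubule markers as a covariate all 10 genes were called, and 30.4% of all genes (4980). The part of the cell makeup in the differences was not tested further.

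The second comparison asked how MCC950 changed the 10 genes in middle-aged mice, with the same saline libraries as reference. None of the 10 was called by edgeR, none had an unadjusted p under 0.05, and DESeq2 called none (21.1% of all genes). Over all genes 16.8% were called, and 11.9% were higher and 4.86% lower with MCC950 (1957 and 796 genes), a split that came to 1283 and 1271 genes with upper-quartile scaling. An unadjusted p under 0.05 was reached by 31.6% of all genes. The log2 fold change was below 0 for 9 of the 10 genes and 0.04 ± 0.20 for *Nfkbie*, which was -0.0076 with upper-quartile scaling, while 50.5% of all genes were above 0. The median was -0.09, against 0.00 over all genes.

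Of the ligand and its receptors, *Tnf* ran from 19.7 to 61.0 CPM in MCC950 mice (median 34.1), with 3 of the 8 libraries below every saline library and none above. Its log2 fold change was -0.36 ± 0.29 (edgeR adjusted p = 0.419). *Tnfrsf1b* ran from 48.6 to 129 CPM (median 71.7), against 75.2 to 115.3 CPM in saline mice. The MCC950 libraries split here, with 4 of the 8 below every saline library and replicate 6 above every saline library. The log2 fold change was -0.34 ± 0.22 (edgeR adjusted p = 0.299). *Tnfrsf1a* ran from 47.9 to 71.2 CPM (median 57.4), and its log2 fold change was -0.09 ± 0.11 (edgeR adjusted p = 0.613).

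*Tnfaip3* ran from 82.4 to 226 CPM with MCC950 (median 122), *Nfkbia* from 86.2 to 166 CPM (median 100.8) and *Nfkbie* from 21.4 to 62.5 CPM (median 33.9). For each of these feedback inhibitors the MCC950 libraries reached both below the lowest and above the highest saline library. Their log2 fold changes were -0.09 ± 0.24, -0.02 ± 0.19 and 0.04 ± 0.20, with edgeR adjusted p of 0.839, 0.965 and 0.905.

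Among the subunits, *Nfkb1* ran from 25.0 to 42.8 CPM (median 31.3), with 3 of 8 libraries below every saline library. Its log2 fold change was -0.23 ± 0.14 (edgeR adjusted p = 0.257). *Rela* ran from 40.7 to 64.7 CPM (median 47.8), *Nfkb2* from 19.99 to 39.3 (median 26.7) and *Relb* from 10.5 to 19.4 (median 13.7). Each of these ranges held the whole saline range, and the log2 fold changes were -0.02 ± 0.10, -0.02 ± 0.14 and -0.11 ± 0.15 (edgeR adjusted p of 0.932, 0.958 and 0.667).

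The SD over the MCC950 libraries was larger than that over the saline libraries for all 10 genes, which vary together. This was not tested, and its share over all genes was not counted. The SD of *Nfkbie* was 13.1 CPM in MCC950, 6.50 in saline and 6.17 in young libraries, and that of *Tnfrsf1b* was 29.3, 13.6 and 18.2 CPM. The young SD was also above the saline SD for all of the genes but *Tnf* and *Nfkbie*. It was above the MCC950 SD for *Tnfrsf1a* and *Nfkb1*. MCC950 replicate 5 was the lowest library for 7 of the 10 genes and replicate 7 the highest for 7. Replicate 7 had the lowest sum of proximal tubule markers of its group, 2915 CPM of a range up to 8542 CPM, and the third highest macrophage and myeloid sum, 3457 CPM.

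Proximal tubule markers rose with MCC950 in 7 of 12 cases and 6 of 15 podocyte markers rose. None of the 12 macrophage and myeloid markers was called, and 0 of them had a log2 fold change above 0 (median -0.205). Above 0 were also 1 of 8 T cell and 0 of 7 B and plasma cell markers, none of them called. With the proximal tubule markers as a covariate, 9 of the 10 log2 fold changes turned positive, and *Tnfaip3* (0.64), *Nfkbia* (0.55) and *Nfkbie* (0.63) were called higher with MCC950, with edgeR adjusted p of 0.0403, 0.0427 and 0.0239, while 4.84% of all genes (793) were called. Over the 13 alternative settings the adjusted p of these 3 genes otherwise reached 0.929, 0.985 and 0.984. The part of the tubular share in the comparison was not tested further.

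The third comparison set MCC950 mice against young mice and shares its libraries with both others. The genes called were *Nfkbie*, *Relb*, *Nfkb2*, *Tnfrsf1b* and *Rela*, all higher, where 38.3% of all genes were called, with 21.8% higher and 16.5% lower (3572 and 2705 genes, or 2761 and 3241 with upper-quartile scaling). An unadjusted p under 0.05 was reached by 7 of the 10, against 47.7% of all genes. All 10 log2 fold changes were positive, as were 58.1% over all genes, with a median of 0.46 against 0.08.

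*Nfkbie* rose 1.78-fold (log2 fold change 0.83 ± 0.22, edgeR adjusted p = 0.00505), with 6 of 8 MCC950 libraries above every young library. *Relb* rose 1.49-fold (0.58 ± 0.16, adjusted p = 0.00817). These were the genes whose call held with any 1 library left out. *Nfkb2* rose 1.38-fold (0.46 ± 0.15, edgeR adjusted p = 0.0213), *Tnfrsf1b* 1.57-fold (0.65 ± 0.24, adjusted p = 0.0335) and *Rela* 1.22-fold (0.29 ± 0.11, adjusted p = 0.0379). The call of *Nfkb2* was lost without young replicate 1, 3 or 5, and that of *Tnfrsf1b* without any of those or MCC950 replicate 6, 7 or 8. *Rela* lost its call with 16 of the 21 libraries left out: every young library, saline replicates 1, 2, 3, 4, 6 and 7, and MCC950 replicates 3, 4, 7 and 8. Its adjusted p was 0.0731 with DESeq2 and ran from 0.000217 to 0.349 over the 13 alternative settings. In a fit of only these 2 groups, *Relb* and *Nfkbie* were the ones called, where 32.1% of all genes were called. In MCC950 mice 13 of 15 podocyte and 9 of 9 endothelial markers were lower, and 8 of 12 proximal tubule markers higher. All 12 macrophage and myeloid markers had a positive log2 fold change, and 3 were called. With these as a covariate *Relb* and *Nfkbie* were called, and 45.3% of all genes. With the podocyte markers none of the 10 was called (1.02% of all genes), and with the proximal tubule markers all 10 were (37.0%). The podocyte marker sums of young and MCC950 libraries do not overlap either, so the podocyte covariate and this comparison cannot be told apart. The part of the cell makeup was not tested further.

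For the other genes the log2 fold changes of MCC950 against young mice were 0.33 ± 0.31 for *Tnf*, 0.18 ± 0.11 for *Tnfrsf1a*, 0.54 ± 0.26 for *Tnfaip3*, 0.14 ± 0.15 for *Nfkb1* and 0.47 ± 0.20 for *Nfkbia*, with edgeR adjusted p between 0.0729 and 0.463.

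**Figure D3:**
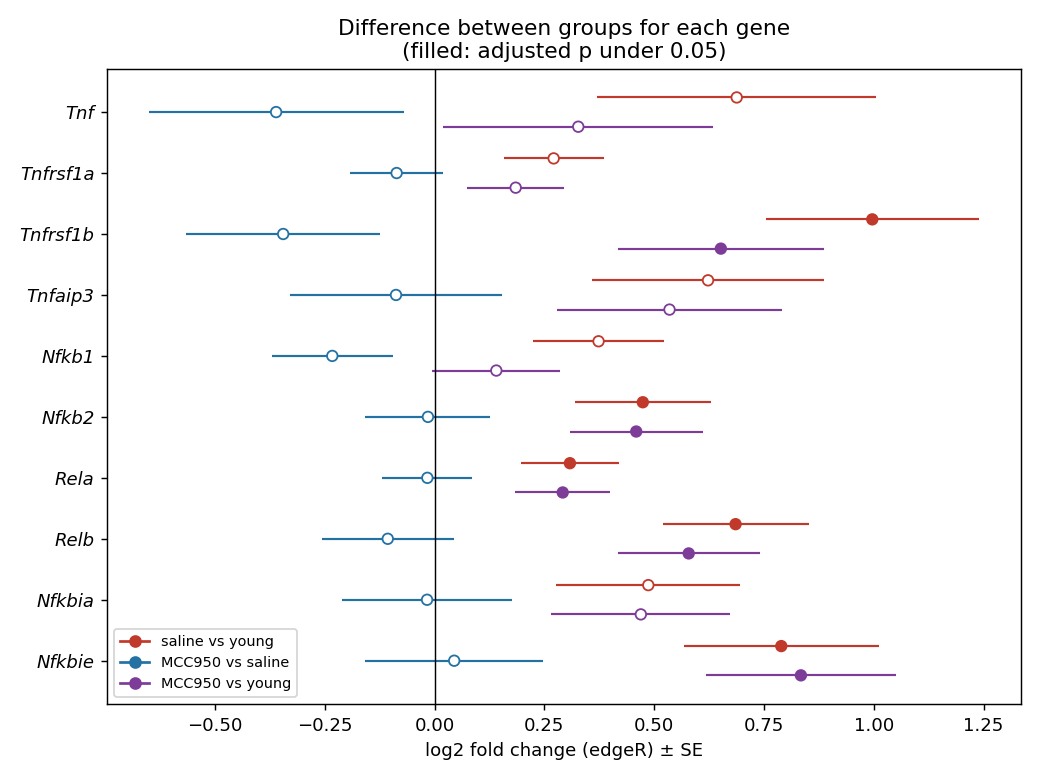
Log2 fold change (x axis, edgeR, bars are ± 1 SE) of each of the 10 genes (y axis) between saline and young, MCC950 and saline, and MCC950 and young libraries. Filled points passed an adjusted p of 0.05, which 5, 0 and 5 of the 10 genes did.

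Ratios of related genes within a library do not depend on how libraries are scaled. They were chosen after the levels were seen, so their p-values partly restate this choice. For *Tnfrsf1b*/*Tnfrsf1a*, *Nfkb2*/*Nfkb1* and *Nfkbie*/*Nfkbia*, the first gene was called in saline against young mice and the second was not. The ratio of *Tnfrsf1b* to *Tnfrsf1a* counts ran from 0.597 to 1.35 in young mice (median 1.02), from 1.43 to 1.75 in saline mice (median 1.61) and from 1.02 to 2.03 in MCC950 mice (median 1.26). Young and saline libraries did not overlap. The ratio was 1.74-fold higher in saline mice (p = 0.00117 by an exact permutation test, two-sided, which with 13 libraries in 2 such groups can give no smaller value, and adjusted p = 0.0140 over the 12 ratio tests). It was 0.803 times as high with MCC950 as with saline (exact permutation p = 0.0376, adjusted p = 0.0629), and this adjusted p was between 0.0210 and 0.0468 without MCC950 replicate 6 or 7 or saline replicate 1. Against young mice the ratio was 1.39-fold higher with MCC950, which did not pass (exact permutation p = 0.0420, adjusted p = 0.0629).

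The ratio of *Relb* to *Rela*, a noncanonical to a canonical subunit, ran from 0.196 to 0.328 in young, 0.282 to 0.333 in saline and 0.252 to 0.318 in MCC950 mice. It was 1.32-fold higher in saline than in young mice (exact permutation test, adjusted p = 0.0315). With MCC950 it was 1.23-fold higher than in young mice, which did not pass (exact permutation test, adjusted p = 0.0506). The ratio of *Nfkbie* to *Nfkbia* ran from 0.214 to 0.291 in young, 0.263 to 0.357 in saline and 0.248 to 0.381 in MCC950 mice, and was 1.21-fold higher in saline and 1.24-fold higher in MCC950 than in young mice (exact permutation tests, both adjusted p = 0.0315, and 0.0506 without young replicate 4, and for MCC950 also without young replicate 3). The ratio of *Nfkb2* to *Nfkb1* had medians of 0.678, 0.713 and 0.818 in young, saline and MCC950 mice. It was 1.08-fold higher in saline than in young mice, which did not pass (exact permutation test, adjusted p = 0.258). It was 1.24-fold higher in MCC950 than in young mice (exact permutation test, adjusted p = 0.0432), a call that was lost without any of 9 libraries (young replicates 3, 4 and 5 and MCC950 replicates 1, 3, 4, 5, 7 and 8), with adjusted p up to 0.0629. Between MCC950 and saline mice none of the 4 ratios passed, and the differences were chosen for testing after the levels were seen.

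**Figure D4:**
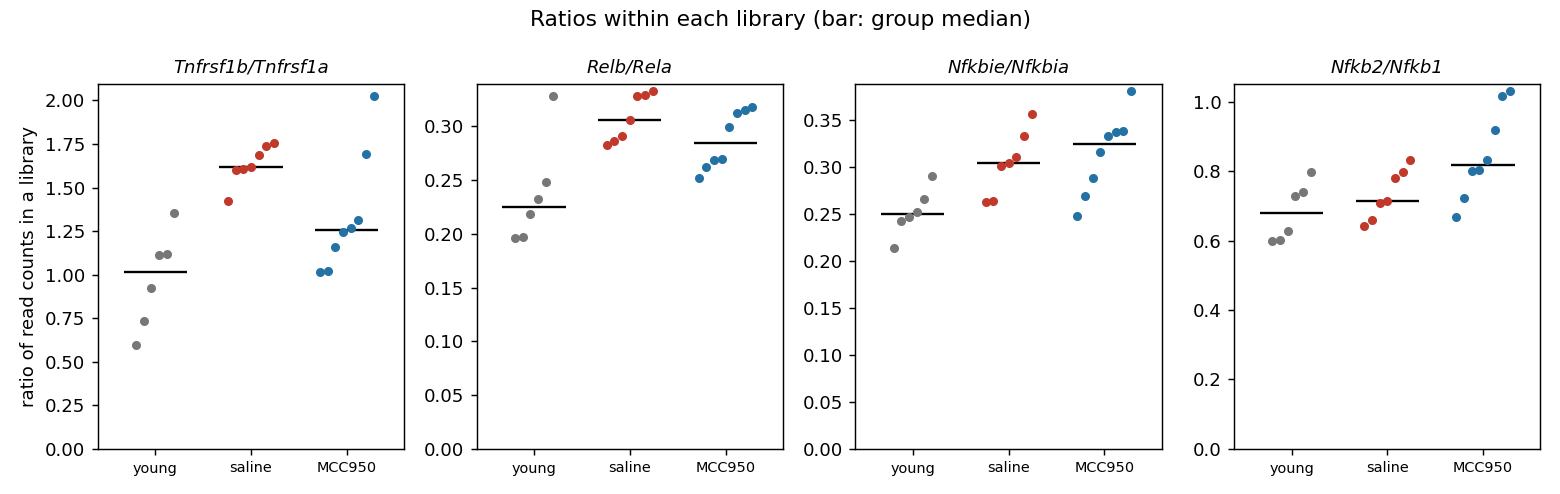
Ratio of the read counts of 2 related genes within each library (y axis, from 0) in the young, saline and MCC950 groups (x axis). Points are libraries and bars are medians, and the saline libraries lie above the young ones for *Tnfrsf1b*/*Tnfrsf1a* (1.43 to 1.75 against 0.597 to 1.35).

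Levels of different genes were compared per length of their exons (GENCODE vM21, RPKM, the CPM per kilobase). *Nfkbia* was the highest of the 10 in all 3 groups, with medians of 51.8, 75.6 and 62.6 RPKM in young, saline and MCC950 mice. *Nfkb1* was the lowest, with medians of 2.31, 3.22 and 2.59 RPKM, next to *Relb* with 2.44, 4.02 and 3.52 RPKM. The length joins the exons of all annotated transcripts, 12061 bases for *Nfkb1* and 3885 for *Relb*, and may differ from the length over which reads were counted. The order of these genes depends on it, since their young medians were 27.9 CPM for *Nfkb1* and 9.47 CPM for *Relb*. Between these were *Tnf*, *Tnfrsf1a*, *Tnfrsf1b*, *Tnfaip3* and *Rela*, with medians of 13.3 to 28.3 RPKM over the groups and overlapping ranges, followed by *Nfkbie* (7.13 to 12.2 RPKM) and *Nfkb2* (4.24 to 6.04 RPKM).

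The 10 genes varied together between libraries of a group. Over the 45 pairs, Pearson's r of the deviations of log2 CPM from the group means ran from 0.61 to 0.97, with a median of 0.83 (21 libraries). Cell makeup and depth differ between libraries, and their part in this shared variation was not tested. Of 12103 genes, those whose deviations were most like *Tnf* were *Nfkbid* (r = 0.96), *Ifnar1* and *Cmtm3*, and those most like *Tnfrsf1a* were *Ptpn1* (r = 0.94), *Irak4* and *Hcar2*. Closest to *Tnfrsf1b* were *Apbb1ip* (r = 0.95), *Itgb2* and *Slc11a1*, and closest to *Tnfaip3* were *Nlrp3* (r = 0.97), the gene of the sensor that MCC950 inhibits, *Nfkbiz* and *Cd14*.

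For the subunits, the closest genes were *Nfatc1* (r = 0.97), *Wipf1* and *Runx1* for *Nfkb1*, *Nfkbie* (r = 0.97), *Srgn* and *Kdm6b* for *Nfkb2*, *Rasgef1b* (r = 0.95), *Mcl1* and *Pim1* for *Rela*, and *Cd40* (r = 0.92), *Rasgef1b* and *Gnl3* for *Relb*. For the inhibitors they were *Tnfaip3* (r = 0.97), *Ier5* and *Nfkbiz* for *Nfkbia*, and *Srgn* (r = 0.97), *Mcl1* and *Nfkb2* for *Nfkbie*. An r of at least 0.9 was reached by 2 genes for *Relb*, 10 for *Tnfrsf1a* and 123 for *Nfkb1*, with the other 7 genes between the last 2 numbers.

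The pathway upstream and downstream of the 10 genes was covered by 4 lists, whose counts of called genes are descriptions. Over all genes 12.2% were called higher and 12.4% lower in saline against young mice. With MCC950 these shares were 11.9% and 4.86% against saline, and 21.8% and 16.5% against young mice. Among 20 genes of the TNF receptor complex and cell death, 6 rose and none fell in saline against young mice, with a median log2 fold change of 0.29. They included *Otulin*, a deubiquitinase of linear chains (9.96 to 14.1 CPM in the means, log2 fold change 0.51 ± 0.09, edgeR adjusted p = 0.000283), *Tnip1*, a partner of A20 (0.42 ± 0.11, adjusted p = 0.00666), *Traf2*, an adaptor of the receptors (0.30 ± 0.09, adjusted p = 0.0141), and *Sharpin*, a subunit of the linear ubiquitin ligase (0.29 ± 0.08, adjusted p = 0.0160). In *Otulin* and *Tnip1* young and saline libraries did not overlap, which held for 4.51% of all genes in this direction. With MCC950 against saline *Tax1bp1*, another partner of A20, was the only one called (0.24 ± 0.08, edgeR adjusted p = 0.0360). Against young mice 6 were higher in MCC950 mice, led by *Otulin* (0.47 ± 0.08), *Tnip1* (0.48 ± 0.10), *Tradd* (0.33 ± 0.10) and *Rbck1* (0.22 ± 0.08).

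Among 14 kinases and adaptors of the IKK and noncanonical routes, *Traf1*, an adaptor induced by NF-kappaB, was the only one that rose in saline mice (log2 fold change 0.76 ± 0.22, edgeR adjusted p = 0.0163). *Chuk*, the gene of IKK-alpha, rose with MCC950 against saline (0.31 ± 0.10, adjusted p = 0.0371), while *Ikbkg*, the regulatory subunit of IKK, and *Tab3*, which links TAK1 to ubiquitin chains, fell (-0.19 ± 0.06 and -0.22 ± 0.07, adjusted p of 0.0420 and 0.0310). Against young mice *Traf1* (0.78 ± 0.22) and *Ltbr*, the lymphotoxin beta receptor (0.24 ± 0.07), were higher and *Tab3* lower (-0.36 ± 0.07) in MCC950 mice.

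Of 8 other Rel and IkappaB genes, 3 rose in saline mice: *Nfkbib*, the gene of IkappaB-beta (log2 fold change 0.42 ± 0.13), and the nuclear IkappaB genes *Nfkbid* (0.72 ± 0.22) and *Bcl3* (0.46 ± 0.15), with edgeR adjusted p of 0.0201, 0.0218 and 0.0347. MCC950 against saline called *Nkiras1*, a small GTPase that binds IkappaB (0.52 ± 0.11, adjusted p = 0.00422). Against young mice 5 were higher with MCC950, led by *Nfkbib* (0.72 ± 0.12), *Bcl3* (0.76 ± 0.15), *Commd1* (0.32 ± 0.09) and *Nkiras1* (0.37 ± 0.11).

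NF-kappaB response genes were mixed. Of 24 listed 22 passed the filter, and 4 rose and 1 fell in saline mice, where 24.6% of all genes were called. Their median log2 fold change was 0.29. The largest rise was in *Mmp9*, a matrix protease, from a mean of 0.538 to 2.98 CPM (log2 fold change 2.43 ± 0.46, edgeR adjusted p = 0.000680). *Lcn2*, an iron-carrier protein released by injured tubules and neutrophils (1.09 ± 0.23, adjusted p = 0.00203), and *Vcam1*, an adhesion molecule for leukocytes (1.25 ± 0.37, adjusted p = 0.0159), rose as well, and *Csf1*, the growth factor of macrophages, fell (-0.83 ± 0.18, adjusted p = 0.00219).

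With MCC950 against saline, *Sod2*, the mitochondrial superoxide dismutase (log2 fold change 0.49 ± 0.10, edgeR adjusted p = 0.00587), and the chemokine gene *Cxcl1* (0.73 ± 0.21, adjusted p = 0.0248) rose, and *Lcn2* fell from a mean of 6.88 to 3.39 CPM (-1.02 ± 0.21, adjusted p = 0.00466). Against young mice 7 response genes were higher and 1 lower in MCC950 mice, where 38.3% of all genes were called. These were led by *Csf1* (-0.80 ± 0.17), *Cxcl1* (0.97 ± 0.23), *Mmp9* (1.85 ± 0.45) and *Bcl2a1a*, an inhibitor of cell death (0.99 ± 0.30).

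Immediate early genes, which rise when tissue is digested, were looked at beside the 10 genes. Of 16, *Myc* alone rose in saline against young mice (log2 fold change 0.55 ± 0.19, edgeR adjusted p = 0.0440), with a summed level of 5554 to 9606 CPM in young, 5908 to 8438 in saline and 5709 to 9714 in MCC950 libraries. With MCC950 against saline *Egr2* fell (-0.64 ± 0.19, adjusted p = 0.0274), and against young mice *Egr1* (-0.39 ± 0.15) and *Fosb* (-0.43 ± 0.15) were lower and *Myc* (0.51 ± 0.19) higher. The sum was lowest in young replicate 1, which was lowest of its group for 9 of the 10 genes, and highest in MCC950 replicate 7, which was highest for 7. In the MCC950 group it was lowest in replicate 6 (5709 CPM), the highest library for *Tnfrsf1b*, and replicate 5, lowest for 7 of the 10 genes, had 5990 CPM. With the immediate early genes as a covariate all 10 genes were called in saline against young mice, none in MCC950 against saline and 7 in MCC950 against young mice. Over all genes 29.0%, 20.5% and 43.5% were called with this covariate, more than without it in each comparison.

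**Figure D5:**
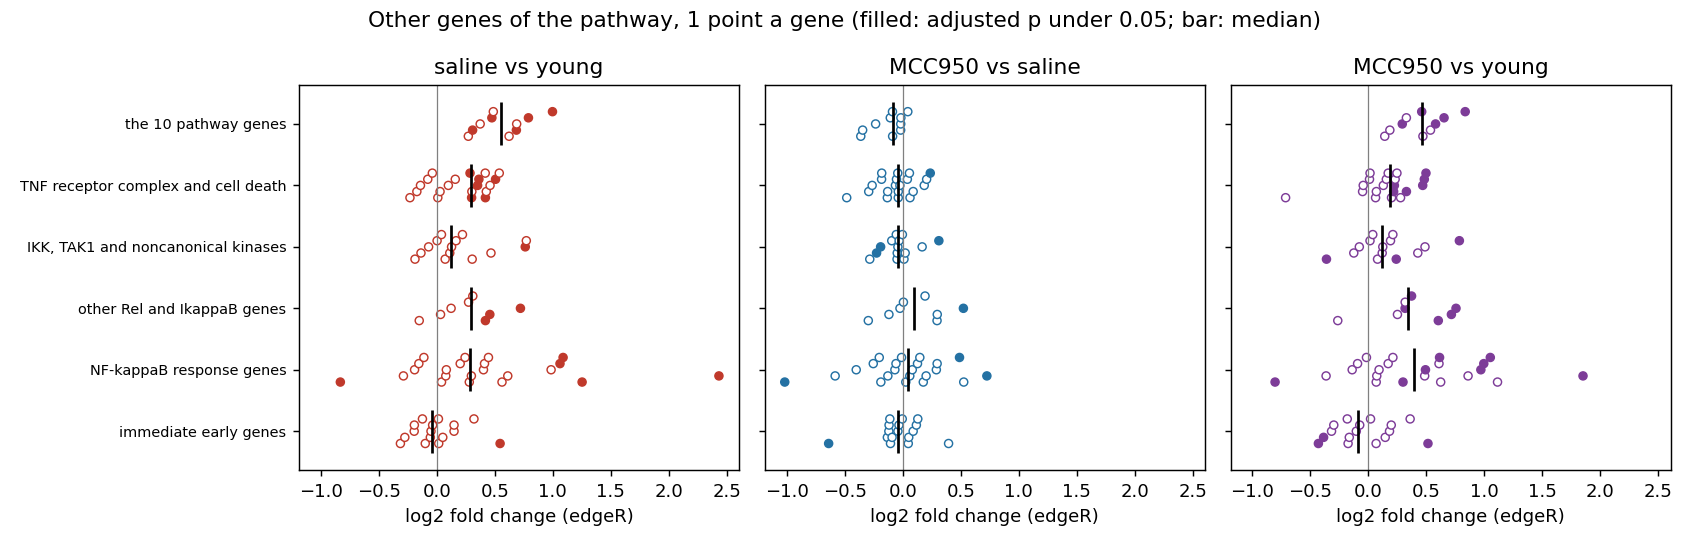
Log2 fold change (x axis, edgeR) of the 10 genes and of the genes of the 4 pathway lists and the immediate early genes (rows) in the 3 comparisons (panels), with 1 point for each gene tested. Filled points passed an adjusted p of 0.05 and black bars are medians, which in saline against young mice were 0.56 for the 10 genes and -0.04 for the immediate early genes.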

How the data were processed

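The deposited tables hold raw counts, which the authors made with featureCounts from reads trimmed by TrimGalore and aligned by Bowtie2 to mm10, for 27179 genes in 21 libraries. The annotation release, the strand setting and the handling of reads with several alignments are not given in the sources used here. A deposited table of normalized values was not used. All 6 libraries labelled young were used, where the study's methods name 5 mice of this age. Replicates are separate mice.

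One edgeR fit (version 4.0.16, R 4.3.3) held the 3 groups, with TMM scaling. The 16377 genes that filterByExpr kept were tested by the quasi-likelihood F test, and p-values were adjusted by the Benjamini-Hochberg method over all genes tested. All 10 genes passed the filter. The SE of a log2 fold change was taken from the F statistic. CPM used TMM-adjusted library sizes, and log2 CPM a prior count of 2. Counts outside the mitochondrial genes ran from 5804891 to 28569185 per library, and counting error was not compared with the spread between mice over all genes. Ratios of counts were compared on the log2 scale with scipy 1.17.1 under Python 3.11.15 by exact permutation tests, two-sided and adjusted over 12 tests. The workflow was tested on simulated data. DESeq2 1.42.0, 12 other settings and fits without each of the 21 libraries were run as alternatives.

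The 10 genes and the lists were chosen with earlier results of these data known, and the ratios after the levels were seen. From each list, up to 4 called genes with the smallest adjusted p in each comparison are named, and for each of the 10 genes the 3 genes with the most similar deviations among those with an average of at least 1 log2 CPM. Promoter sequences are from RefSeq (GRCm38.p6).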

Additional observations from a re-analysis of the deposited data

How the results depend on the processing

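Of the 10 genes, 5 were called in saline against young mice (24.6% of all genes). Brackets below give the share of all genes called under the same setting. The number was 4 with DESeq2 (28.2%), its size factors (25.0%), no filter on low counts (17.0%) and thinning to equal depth (22.5%). *Rela* was the gene lost in each. It was 5 with upper-quartile scaling (24.8%), a stricter filter (26.3%), mitochondrial genes left out (24.5%) and the 2 groups alone (25.9%). The number was 9 with replicate number as a block (25.1%). As a covariate, the podocyte markers gave 0 (0.0366%) and the macrophage and myeloid markers 1 (20.2%). The proximal tubule markers (30.4%) and the immediate early genes (29.0%) gave 10 each. With 1 library left out it was 3 to 7 (18.1% to 28.3%). In MCC950 against saline mice it was 3 with the proximal tubule markers (4.84%). It was 0 under the other 12 settings (10.8% to 22.8%) and with any library left out (9.33% to 20.2%). In MCC950 against young mice the main number was 5 (38.3%). It was 4 with DESeq2 (40.3%), its size factors (37.2%), upper-quartile scaling (36.6%), thinned libraries (35.9%) and the replicate block (38.9%). *Rela* was again the gene lost in each. It was 2 in the fit of 2 groups (32.1%), 0 with the podocyte markers (1.02%) and 2 with the macrophage and myeloid markers (45.3%). The proximal tubule markers gave 10 (37.0%) and the immediate early genes 7 (43.5%). With 1 library left out it was 2 to 5 (31.1% to 39.3%). Over all genes, 6 were called in saline against young mice with the podocyte markers as a covariate, against 4034 in the main fit. In MCC950 against young mice these numbers were 167 and 6277. With the proximal tubule markers 793 were called in MCC950 against saline mice, against 2753. Which genes were called in both fits was not counted. With 1 library left out and no covariate, the calls ran from 2991 to 4673, from 5131 to 6477 and from 1523 to 3295 in these comparisons. The podocyte marker sums of young libraries overlap those of neither other group. This covariate and the difference from young mice therefore cannot be told apart. The cause of the changes under the other settings was not tested.

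With MCC950 against saline, where no gene was called, signs turned with the proximal tubule markers (*Tnf* 0.45, *Tnfrsf1a* 0.18, *Tnfrsf1b* 0.14, *Tnfaip3* 0.64, *Nfkb1* 0.16, *Nfkb2* 0.38, *Rela* 0.25, *Relb* 0.19 and *Nfkbia* 0.55 as log2 fold changes), with the macrophage and myeloid markers (*Tnfaip3* 0.13, *Nfkb2* 0.082, *Rela* 0.051, *Nfkbia* 0.15) and with the immediate early genes (*Nfkb2* 0.020, *Rela* 0.0088, *Nfkbia* 0.039). *Nfkbie* turned to -0.0076 with upper-quartile scaling, -0.052 with the replicate block and -0.072 with the podocyte markers. With the macrophage and myeloid markers *Tnf* turned to -0.12 in saline and -0.23 in MCC950 against young mice, and *Nfkb1* to -0.10 in the latter. With 1 library left out, the log2 fold changes with MCC950 ran from -0.11 to 0.038 for *Nfkb2*, -0.083 to 0.019 for *Rela*, -0.11 to 0.035 for *Nfkbia* and -0.11 to 0.13 for *Nfkbie*, and the log2 ratio of *Nfkbie* to *Nfkbia* ran from -0.0026 to 0.086.

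Same-numbered libraries were not taken as pairs. The correlation of their deviations from the group means ran from -0.061 to 0.35 in saline and young, from -0.14 to 0.33 in MCC950 and saline and from -0.013 to 0.40 in MCC950 and young mice. The replicate block changed the calls over all genes from 4034, 2753 and 6277 to 4107, 3285 and 6365, and called 9, 0 and 4 of the 10 genes in the 3 comparisons. The lowest count of any of the 10 genes in a library was 177. Counting error was not compared with the spread between mice for these genes.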
